A study of Mus musculus with 6 samples.

Results

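The erythropoietin receptor JAK-STAT axis was followed through 10 genes of the 55487 in the count table, chosen by name for their roles: the receptor (Epor), its kinase (Jak2), the transcription factors it activates (Stat5a and Stat5b), and target genes and negative regulators (Socs1, Socs2, Socs3, Cish, Pim1 and Ptpn6). Their RNA was measured by bulk sequencing in megakaryocyte-erythroid progenitors, the marrow cells from which erythrocytes and platelets descend, taken by cell sorting from 8-week-old C57BL/6 mice of wild-type genotype. There were 3 libraries from mice labelled control and 3 from mice fasted for 6 h, and the study asked what fasting does to erythropoiesis. The labels do not give the sorting gate, the number of mice behind a library, or whether libraries of a group came from separate animals, so p-values measure the spread between these libraries. Total counts were 30246110, 26323940 and 22445970 in control libraries 1, 2 and 3. Those of fasted libraries 1, 2 and 3 were all lower, at 12797144, 18225191 and 14882835, so depth cannot be told apart from group.

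Erythropoietin binds its receptor at the surface of erythroid progenitors, and the receptor, which has no kinase domain of its own, relies on JAK2 to pass the signal on. JAK2 phosphorylates the receptor's tail and the STAT5 proteins that dock there, and STAT5 dimers then enter the nucleus and switch on genes for survival and for feedback. Cish and the Socs genes encode SH2-domain proteins that dampen the receptor or the kinase, Pim1 encodes a survival kinase, and Ptpn6 encodes SHP-1, a phosphatase that removes phosphate from the receptor complex.

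Promoter sequences of 3 genes are shown because they hold the short motifs through which erythroid and STAT5 factors are known to act, beside genes whose levels are given further on. They come from RefSeq's GRCm38.p6 windows, which span 250 bases before and 50 after a gene's start, cover 9 of the 10 genes in 12 windows, and are printed on the gene's strand with the motif in capitals. The Epor promoter (chr9:21963577-21963826, minus strand) holds a GATA motif, searched as AGATAA on both strands, 54 bases before the start.
Epor: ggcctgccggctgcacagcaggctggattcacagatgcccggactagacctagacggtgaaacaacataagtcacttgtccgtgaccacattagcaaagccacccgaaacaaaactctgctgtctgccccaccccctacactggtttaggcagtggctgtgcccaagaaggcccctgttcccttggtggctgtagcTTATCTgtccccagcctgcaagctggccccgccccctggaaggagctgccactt
The Cish window (chr9:107296539-107296688, plus strand) holds 2 matches to TTCNNNGAA, the palindromic STAT motif that reads alike on both strands, separated by 2 bases and lying at the start itself.
Cish: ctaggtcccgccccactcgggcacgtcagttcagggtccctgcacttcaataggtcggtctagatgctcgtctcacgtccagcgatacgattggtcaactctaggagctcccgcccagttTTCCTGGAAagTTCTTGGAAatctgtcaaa
The Socs3 promoter window (chr11:117969367-117969616, minus strand) holds 1 match to the same motif, 154 bases before the RefSeq start. This window lies inside the Socs3 gene as positioned further on, downstream of the gene start given there.
Socs3: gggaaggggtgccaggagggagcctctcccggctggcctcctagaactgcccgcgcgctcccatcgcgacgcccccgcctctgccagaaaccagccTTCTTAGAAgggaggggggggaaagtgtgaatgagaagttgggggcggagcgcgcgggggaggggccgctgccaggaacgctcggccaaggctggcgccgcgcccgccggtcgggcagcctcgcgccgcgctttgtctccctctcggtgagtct
Of all 32851 windows in that table, 8.30% hold TTCNNNGAA and 11.2% hold AGATAA on either strand. Among the 9 genes with a window, Cish and Socs3 had the first motif and Epor alone had the second. A match describes the letters only and was not tested as a binding site.

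No gene of the axis passed the test between fasted and control libraries. The comparison used edgeR's quasi-likelihood test with Benjamini-Hochberg adjustment over the 10641 genes that passed an expression filter and had a mean count of at least 5 times a background rate, which was measured on odorant and vomeronasal receptor genes. Of the 10 genes, 8 entered that test, and 0 of the 8 passed at an adjusted p under 0.05, against 0% of all tested genes. At an unadjusted p under 0.05 there were 3 (Jak2, Socs1 and Ptpn6), against 19.8% of all tested genes. DESeq2, which called 4.73% of the same genes, and limma-voom also called 0 of the 8. The median log2 fold change was 0.29 over the 8 genes and 0.02 over all tested genes, with 7 of the 8 above 0 and Ptpn6 below. Socs1 was the gene nearest inside the background limit, at 5.88 times background. Cish was nearest outside, at 4.44 times, and Socs2 stood at 2.41 times.

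The share of background in the counts differed between the groups, as did the total counts. The background rate itself overlapped. It was 8.99, 13.1 and 14.7 counts per exonic kilobase in control libraries 1, 2 and 3, against 14.2, 16.0 and 14.8 in fasted libraries. How much of the difference in share goes with depth was not tested. If the rate of the odorant and vomeronasal receptor genes held over all exons, background made up 3.90% to 8.59% of the counts in control libraries and 11.5% to 14.6% in fasted libraries. Among tested genes at 5 to 10 times background the median log2 fold change was 0.32, and 29.7% of these 3711 genes were higher in every fasted library than in every control library. Among the 3096 genes at 30 times background or more, the median was -0.16, and 28.8% were lower in every fasted library. After the expected background was subtracted from each count, the medians of these classes were 0.26 and -0.10. Jak2, Socs1 and Socs3 belong to the first class, and Epor, Stat5a, Stat5b, Pim1 and Ptpn6 to the last. The medians of genes of like abundance thus had the same sign as Jak2, Socs1, Socs3 and Ptpn6, and the part of this shift in their values was not tested.

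**Figure D1:**
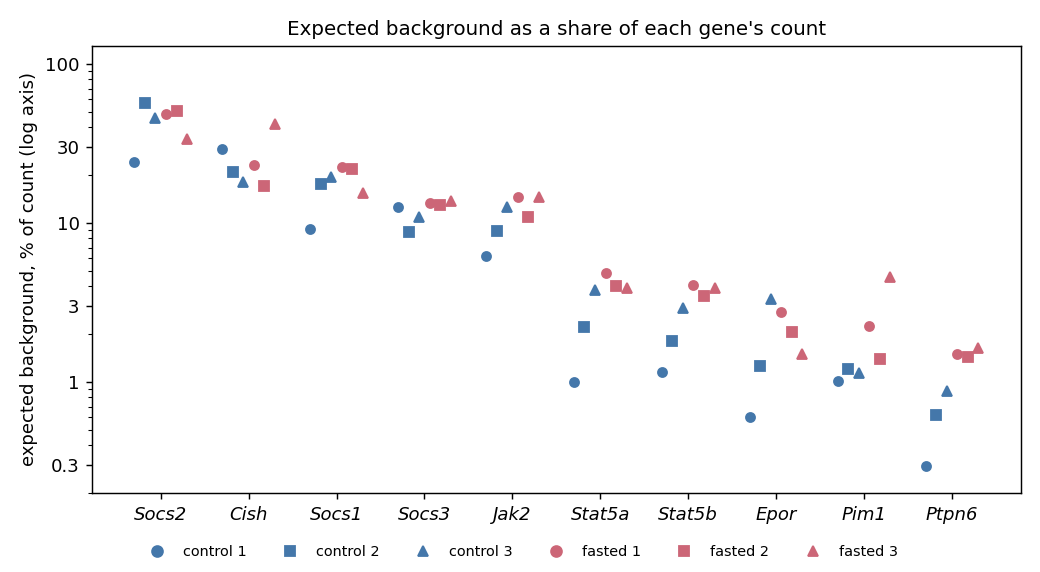
Expected background counts (odorant and vomeronasal receptor rate times exon length) as a percentage of each gene's count, on a log axis, for each of 6 libraries; genes are ordered from the lowest to the highest level over background. Socs2 lies between 24.3% and 57.2% and Ptpn6 between 0.298% and 1.63%.

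The libraries carried marker genes of megakaryocyte-erythroid progenitors beside those of other marrow cells. Of 10 markers of megakaryocyte-erythroid progenitors 9 entered the test and none had 0 counts in any library. Their summed level was 2637 to 5002 CPM (counts scaled to a common library size with the factors of the test) in control and 3695 to 5052 CPM in fasted libraries. Granulocyte and monocyte genes were also present, with all 14 markers in the test, none at 0, and summed levels of 3902, 12592 and 19090 CPM in control libraries 1, 2 and 3 against 4792, 3252 and 1920 CPM in fasted libraries 1, 2 and 3. This sum exceeded the megakaryocyte-erythroid sum in control library 2 (4422 CPM), control library 3 (2637 CPM) and fasted library 1 (3695 CPM), and lay below it in the others. The 14 immediate early genes summed to 3036 CPM in control library 1, against 9656 and 9597 CPM in the other control libraries and 11413 to 12813 CPM in fasted libraries. Summed markers of lymphoid, stem, mature erythroid and platelet cells overlapped between the groups. In bulk samples such as these, fewer cells of a type and less RNA per cell cannot be told apart.

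Epor, the receptor gene (ENSMUSG00000006235.6, chromosome 9, 21958897 to 21963506, minus strand, GRCm38), was well above background in all libraries, at 64.3 times on average. It read 106, 88.1 and 44.2 CPM in control libraries 1, 2 and 3 and 89.9, 98.3 and 148 CPM in fasted libraries 1, 2 and 3. Control library 3 was lowest and fasted library 3 highest, and the other 4 libraries lay between 88.1 and 106 CPM with the groups interleaved. The mean was 79.4 CPM ± 31.7 (SD, n = 3) in control and 112 CPM ± 31.7 (SD, n = 3) in fasted libraries, a log2 fold change of 0.50 ± 0.33 (SE, edgeR adjusted p = 0.423). Without control library 3 the log2 fold change was 0.18, and without fasted library 3 it was 0.24. Klf1, an erythroid transcription factor gene, had its lowest value in the same control library, with 697, 554 and 238 CPM in control and 400, 431 and 612 CPM in fasted libraries. Gata1, whose protein binds GATA motifs, had 390, 290 and 158 CPM in control and 221, 227 and 282 CPM in fasted libraries. Tfrc, the transferrin receptor gene, was instead lowest in fasted library 1, with 186, 247 and 197 CPM in control and 175, 251 and 303 CPM in fasted libraries, and the summed level of 8 mature erythroid genes was lowest in control library 1 (265 CPM, against 494 to 620 CPM in the others). How far the erythroid share of the sorted cells moved with Epor was not tested.

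Jak2 (ENSMUSG00000024789.13, chromosome 19, 29251828 to 29313080, plus strand) encodes the kinase bound to the receptor. It had 26.2, 31.5 and 29.5 CPM in control libraries and 42.8, 46.9 and 38.6 CPM in fasted libraries. Every fasted library lay above every control library, as did 14.4% of all tested genes and 29.7% of those at 5 to 10 times background. The log2 fold change was 0.56 ± 0.17 (SE), a ratio of 1.47 (edgeR adjusted p = 0.154). DESeq2 gave an adjusted p of 0.0536, and under the alternatives the adjusted p lay between 0.0536 and 0.966. Expected background made up 6.16% to 12.7% of its counts in control and 10.95% to 14.5% in fasted libraries. After that background was subtracted from each count the log2 fold change came to 0.58 ± 0.18 (SE, edgeR adjusted p = 0.221).

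The STAT5 genes had nearly the same level in both groups. Stat5b (ENSMUSG00000020919.11, chromosome 11, 100780731 to 100850724, minus strand) was the steadiest gene of the axis, with 153, 171 and 140 CPM in control and 168, 164 and 158 CPM in fasted libraries, a range of 1.22-fold over 6 libraries. Its log2 fold change was 0.08 ± 0.12 (SE), and 2 SE to either side span -0.16 to 0.32. Stat5a (ENSMUSG00000004043.14, chromosome 11, 100859351 to 100885169, plus strand) had 229.6, 180.04 and 140.3 CPM in control and 183, 181 and 205 CPM in fasted libraries. The fasted values lay inside the control range, the log2 fold change was 0.05 ± 0.18 (SE), and 2 SE to either side span -0.30 to 0.40. Their edgeR adjusted p-values were 0.736 for Stat5b and 0.898 for Stat5a. The sign was not fixed: it turned for Stat5a when control library 2 (-0.0012), control library 3 (-0.14) or fasted library 3 (-0.01) was left out, and for Stat5b when control library 3 was (-0.01). The STAT5 genes are close paralogs side by side on the chromosome, and how reads fitting both were assigned is not given in the sources used here. Stat5a also shares 72 exon bases with Stat3 on the opposite strand, and the strand setting of the counting is not given either.

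**Figure D2:**
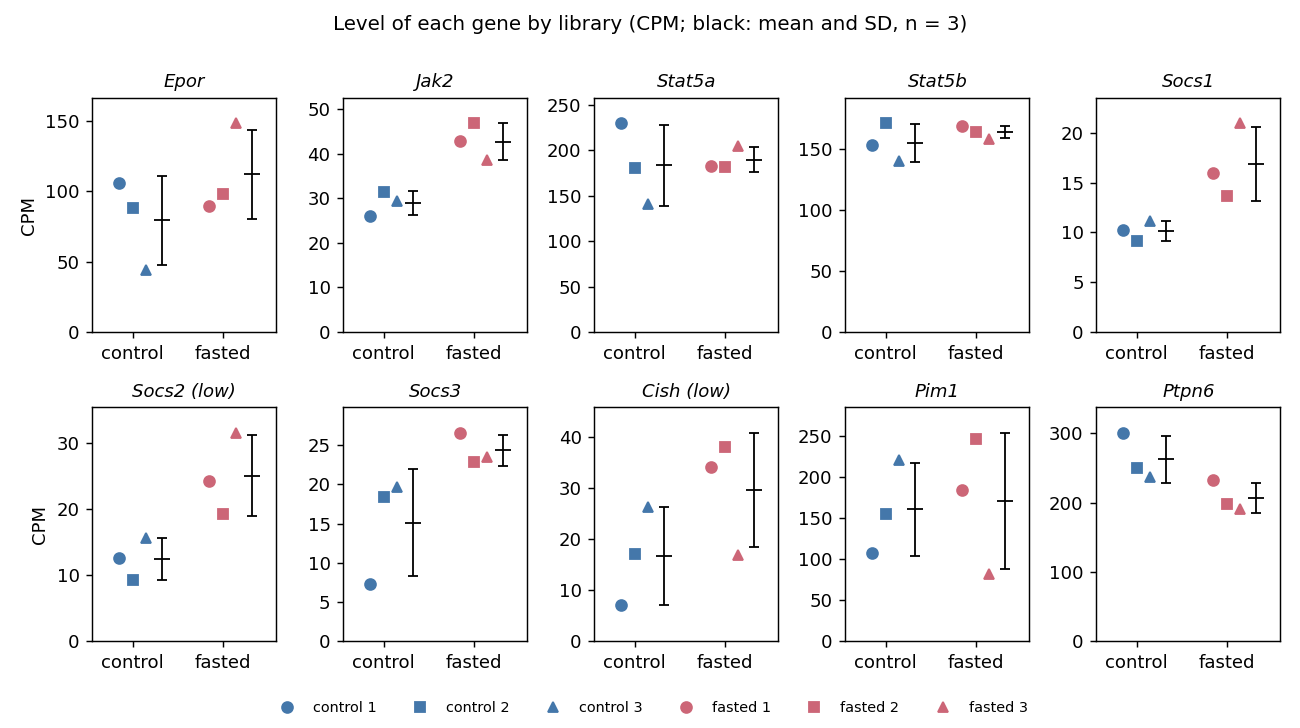
CPM of each of the 10 genes in 3 control (blue) and 3 fasted (red) libraries, with the marker shape giving the replicate number and black bars the mean and SD; each vertical axis starts at 0 and has its own range, and "low" marks genes below 5 times background. With these library factors Jak2, Socs1, Socs2 and Socs3 are higher in every fasted library, Ptpn6 is lower in every fasted library, and the groups overlap for the other 5 genes. Of all tested genes, 14.4% are higher and 12.9% lower in every fasted library. Of genes below 5 times background, where Socs2 lies, 51.5% are higher.

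Socs1 and Socs3, which encode inhibitors that bind JAK kinases or cytokine receptors and block signalling, were expressed at low levels. Socs1 (ENSMUSG00000038037.5, chromosome 16, 10782240 to 10785536, minus strand) had 10.2, 9.15 and 11.2 CPM in control and 15.99, 13.7 and 20.95 CPM in fasted libraries. Every fasted library was above every control library, as were 14.4% of all tested genes and 29.7% of those at 5 to 10 times background. The log2 fold change was 0.73 ± 0.24 (SE), a ratio of 1.66 (edgeR adjusted p = 0.170). DESeq2 gave an adjusted p of 0.0646, and the alternatives lay between 0.0646 and 0.773. The counts behind it were between 184 and 286 per library, of which background was expected to supply 9.14% to 22.5%. Subtracting the background gave 0.74 ± 0.28 (SE, edgeR adjusted p = 0.253).

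Socs3 (ENSMUSG00000053113.3, chromosome 11, 117966079 to 117970047, minus strand) had 7.31, 18.3 and 19.7 CPM in control and 26.6, 22.8 and 23.5 CPM in fasted libraries. Control library 1 lay far below the other 5 libraries, as it did for the immediate early genes, and the remaining control libraries came close to the fasted ones. The log2 fold change was 0.69 ± 0.34 (SE), a ratio of 1.61 (edgeR adjusted p = 0.296). Without control library 1 it was 0.35, and leaving out each of the other libraries gave 0.62 to 0.91. The part of the immediate early response in this difference was not tested.

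Cish and Socs2 were left out of the main test because much of their signal could be background. Both encode SH2-domain feedback proteins induced by STAT5. Cish (ENSMUSG00000032578.7, chromosome 9, 107296026 to 107302784, plus strand) holds the paired STAT motifs printed above at its RefSeq start, downstream of the gene start given here. It had 197, 404 and 519 counts in control and 392, 597 and 225 counts in fasted libraries, with 17.2% to 42.2% of them expected from background. On the scaled level these were 7.02, 17.1 and 26.2 CPM in control and 34.1, 38.1 and 16.96 CPM in fasted libraries. Control library 1 was lowest and fasted library 3 next, below control libraries 2 and 3, so that the groups overlapped. In a fit of all 36508 genes that passed the expression filter, with the same library factors, its log2 fold change came to 0.83 ± 0.46 (SE, edgeR adjusted p = 0.198). Without control library 3 that became 1.30 with an edgeR adjusted p of 0.0414, and without control library 1 it was 0.46 with 0.313.

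Socs2 (ENSMUSG00000020027.18, chromosome 10, 95385362 to 95417180, minus strand) had 353, 219 and 308 counts in control and 279, 303 and 419 counts in fasted libraries, which scaled to 12.6, 9.28 and 15.6 CPM in control and 24.2, 19.3 and 31.6 CPM in fasted libraries. Every fasted library was higher in CPM, as were 51.5% of the 25867 genes below 5 times background. In the fit of all filtered genes with the same library factors its log2 fold change came to 1.01 ± 0.28 (SE, edgeR adjusted p = 0.0348). Of all genes in that fit 14.4% were called and 13.7% were called higher, and the median over the genes below 5 times background was 1.03. Leaving out control library 1 (edgeR adjusted p 0.0570), control library 2 (0.124), fasted library 1 (0.0905) or fasted library 3 (0.152) ended the call. After background subtraction the value was 1.05 ± 0.43 (SE, edgeR adjusted p = 0.430).

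Pim1 (ENSMUSG00000024014.8, chromosome 17, 29490753 to 29496112, plus strand), a STAT5 target that encodes a survival kinase, was abundant and uneven. It had 107, 155 and 219.8 CPM in control libraries and 184, 246 and 82.0 CPM in fasted libraries. Both the highest and the lowest value came from fasted libraries, and the range over 6 libraries was 3.00-fold. The log2 fold change came to 0.09 ± 0.44 (SE, edgeR adjusted p = 0.926), and 2 SE to either side span -0.79 to 0.97. It turned to -0.13 without control library 1 and to -0.30 without fasted library 2. The granulocyte and monocyte sum was lowest in fasted library 3, where Pim1 and, of the fasted libraries, Cish were also lowest, and highest in control library 3, where both had their highest control value. Fasted library 2 went the other way, with the highest Pim1 and Cish of all libraries, at 246 and 38.1 CPM. Its granulocyte and monocyte sum was 3252 CPM, below that of every control library. How these levels relate was not tested. Pim1 shares 488 exon bases with the antisense gene Gm26885, which had 71 to 133 counts per library.

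Ptpn6 (ENSMUSG00000004266.15, chromosome 6, 124720707 to 124738714, minus strand), the SHP-1 phosphatase gene, was the one gene of the axis below 0. It had 301, 251 and 237 CPM in control and 232, 198 and 191 CPM in fasted libraries. Each fasted library was lower than each control library, as were 12.9% of all tested genes, although control library 3 and fasted library 1 were close. In its class, at 30 times background or more, 28.8% of genes were lower in this way. The mean went from 263 CPM ± 34.0 (SD, n = 3) to 207 CPM ± 21.8 (SD, n = 3), a log2 fold change of -0.34 ± 0.14 (SE), a ratio of 0.788 (edgeR adjusted p = 0.223). Background was expected to supply at most 1.63% of its counts in any library. Leaving out each library in turn kept the value between -0.44 and -0.23. Ptpn6 shares 195 exon bases with the antisense gene Gm20531, which had 6 to 38 counts per library.

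These directions hold relative to expressed genes, and a scaling over all genes moved them. With TMM factors over all 36508 filtered genes, most of them near background, the median of the 10641 tested genes was -0.50. On that scale Epor was at -0.08, Stat5a at -0.51, Stat5b at -0.44 and Pim1 at -0.35, all reversed from the main fit, while Jak2 (0.06), Socs1 (0.20), Socs2 (0.48), Socs3 (0.22) and Cish (0.41) stayed above 0. Ptpn6 reached -0.88 ± 0.24 (SE, edgeR adjusted p = 0.0423), so that 1 of the 10 genes was called, against 4.97% of all genes in that fit and 3.82% called lower. Relative to the median of the expressed genes in the same fit, Stat5a lay at about the same value, Ptpn6 lower and the other 8 genes higher. Genes of like abundance had other medians in that fit. At 5 to 10 times background, the class of Jak2, Socs1 and Socs3, the median was -0.20, and at 30 times or more it was -0.68. Genes below 5 times background had a median of 0.53, above both Cish and Socs2. Scaling by library totals alone gave values close to the main ones, from -0.38 for Ptpn6 to 0.70 for Socs1 among the 8 tested genes.

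**Figure D3:**
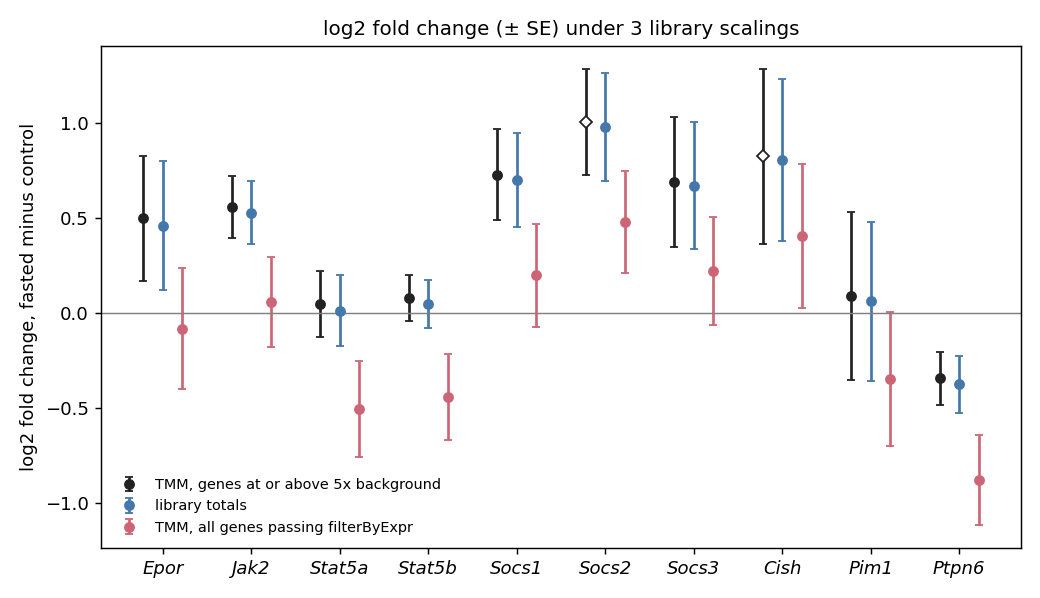
log2 fold change (fasted minus control) ± SE of each gene under TMM over genes at or above 5 times background (black), library totals (blue) and TMM over all filtered genes (red); open diamonds mark Cish and Socs2, fitted with all filtered genes under the first scaling. The red values lie below the black ones for every gene, and Epor, Stat5a, Stat5b and Pim1 change sign between them.

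Ratios between genes of the same library do not depend on the scaling, and 8 were compared. The STAT5 genes kept similar proportions, with overlapping groups: the log2 ratio of Stat5a to Stat5b was 0.22 ± 0.32 (SD, n = 3) in control and 0.21 ± 0.14 (SD, n = 3) in fasted libraries, a difference of -0.01. Epor to Jak2 was 1.36 ± 0.72 (SD, n = 3) in control and 1.36 ± 0.51 (SD, n = 3) in fasted libraries. Against the mean of Epor, Jak2, Stat5a and Stat5b, the ratio of Ptpn6 was 1.60, 1.38 and 1.73 in control libraries and 1.15, 0.87 and 0.71 in fasted libraries. This was the only one of the 8 ratios whose groups did not overlap. Its difference was -0.66, with an exact two-sided permutation p of 0.1, the lowest value 3 libraries a group can reach, and 0.8 after adjustment over the 8 ratios. In the main fit Ptpn6 itself was at -0.34, and the core genes Epor, Jak2, Stat5a and Stat5b were at 0.50, 0.56, 0.05 and 0.08. How often ratios of other genes to this core separate the groups was not tested. The feedback genes had higher mean ratios in fasted libraries, by 0.39 for Socs1, 0.69 for Socs2, 0.49 for Socs3 and 0.61 for Cish, and Pim1 a lower mean by -0.31. All 5 overlapped between the groups, with exact permutation p between 0.2 and 0.7. Single libraries set the sign for 3 of them. Without control library 1 the difference was -0.05 for Socs3 and -0.0037 for Cish, and that of Pim1 was 0.10 without control library 3 and 0.20 without fasted library 3. Leaving out each library kept Socs1 between 0.25 and 0.61, Socs2 between 0.43 and 1.02 and Ptpn6 between -0.78 and -0.56. The feedback genes lay nearer background than Epor, Stat5a and Stat5b of the core. Under the main factors the median log2 fold change was -0.16 for genes at 30 times background or more, the class of those core genes and of Ptpn6. It was 0.32 at 5 to 10 times, the class of Socs1, Socs3 and Jak2. For genes below 5 times, like Cish and Socs2, it was 1.03. The part of this shift in the ratios was not tested.

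**Figure D4:**
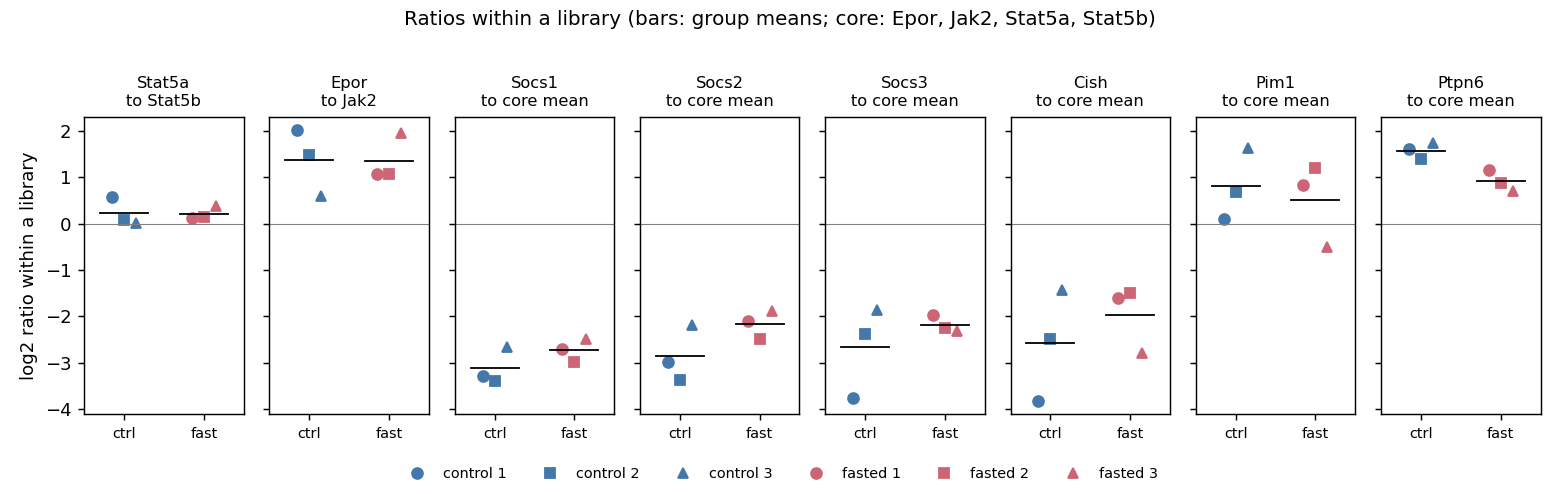
log2 ratio of each named gene to another gene or to the mean log2 level of Epor, Jak2, Stat5a and Stat5b (core) within each library, with black bars for group means. Ptpn6 lies at 1.38 to 1.73 in control and 0.71 to 1.15 in fasted libraries, and the other 7 ratios overlap between the groups.

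Levels between genes were compared per exonic kilobase. In control libraries Ptpn6 led with 93.8 CPM per kilobase ± 12.1 (SD, n = 3). Pim1 at 47.8 ± 16.9 and Epor at 39.9 ± 15.9 CPM per kilobase came next and did not differ beyond their spread. Stat5b at 27.9 ± 2.79 and Stat5a at 25.7 ± 6.27 CPM per kilobase were likewise within their spread, as were Jak2 at 5.77 ± 0.532 and Socs3 at 5.22 ± 2.35. Socs1 at 3.50 ± 0.348, Cish at 2.62 ± 1.50 and Socs2 at 1.31 ± 0.330 CPM per kilobase had the lowest levels on this scale. The deposited length joins all annotated exons, 7133 bases for Stat5a, 6419 for Cish and 9531 for Socs2, while their principal transcripts have at most 3888, 2850 and 2222 bases. Per kilobase of the longest principal transcript, a length chosen after seeing the data, parts of the order turned. Stat5a was then at 47.2 ± 11.5 CPM per kilobase, above Epor at 45.1 ± 17.98 but within the spread, and above Stat5b at 29.7 ± 2.96. Cish at 5.89 ± 3.37 and Socs2 at 5.61 ± 1.42 CPM per kilobase then lay above Socs1 at 3.50 ± 0.348 and beside Jak2 at 5.77 ± 0.532 and Socs3 at 5.92 ± 2.66. On both lengths the receptor and STAT5 genes stood above the kinase gene and the feedback genes. On the deposited length the order in fasted libraries was the same except that Epor, at 56.4 ± 15.9 CPM per kilobase, stood above Pim1 at 50.8 ± 24.7, and that within spread.

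Genes whose levels followed Epor or Cish most closely over the 6 libraries were sought among 8066 named protein-coding genes in the test. For Epor these were Limk2, Wrap73, Fam53b, Vegfb and Orc5, with Pearson correlations of log2 CPM from 0.990 to 0.995. For Cish they were Impad1, Zc3h12a, Aff4, Spag9 and Luc7l2, from 0.994 to 0.997. Zc3h12a, which encodes an RNase that degrades inflammatory transcripts, had 5.13, 20.9 and 41.3 CPM in control and 50.4, 58.98 and 19.4 CPM in fasted libraries, the same order of libraries as Cish. Over these 6 libraries, 196 genes had a correlation over 0.9 with Epor and 335 with Cish, so the names only describe these libraries.

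The wider pathway was followed in 72 further genes, of which 60 entered the test and 0 passed in either direction under edgeR, against 0% of all tested genes. DESeq2 also called 0 of the 60. Of the 60, 33 were above and 27 below 0, with a median log2 fold change of 0.06. The groups did not overlap for 10 genes with higher and 4 with lower fasted values, beside 14.4% and 12.9% of all tested genes. Other receptors and kinases, among them Kit and the other JAK genes, had a median of -0.22 over 9 of 10 genes, with 6 below 0. The other STAT genes had 3 of 5 in the test and a median of -0.12. Adaptors and effectors of the receptor, such as Grb2 and the MAP kinases, had 18 of 20 in the test, 11 above 0 and a median of 0.10. Further target genes, such as Bcl2l1 and Myc, had 15 of 17 in the test, 9 above 0 and a median of 0.15. Negative regulators outside the axis genes had 15 of 20 in the test, 9 above 0 and a median of 0.15.

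Among the pathway genes whose groups did not overlap, those with the smallest p on the higher side were adaptors and a Socs relative at low levels. Irs2, a docking protein of the insulin and cytokine receptors, had 17.6, 19.2 and 26.5 CPM in control and 36.7, 35.1 and 28.3 CPM in fasted libraries, a log2 fold change of 0.66 ± 0.22 (SE, edgeR adjusted p = 0.170). Socs7 had 0.56 ± 0.18 (SE, edgeR adjusted p = 0.170). Gab1, a docking protein downstream of the receptor, had 0.68 ± 0.25 (SE, edgeR adjusted p = 0.197). All 3 lay between 5.42 and 6.77 times background, in the class whose median was 0.32. On the lower side stood Btk at -0.33 ± 0.13 (SE), Map2k1 at -0.31 ± 0.14 (SE) and Vav1 at -0.31 ± 0.19 (SE), a kinase, a MAP kinase kinase and a guanine nucleotide exchange factor of blood cell signalling, with edgeR adjusted p of 0.225, 0.265 and 0.387. Btk, at 70.9 times background, had 191, 175 and 157 CPM in control and 131, 155 and 131 CPM in fasted libraries, so that fasted library 2 nearly reached the control range.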

How the data were processed

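RNA counts of 6 libraries were used, 3 control and 3 fasted, grouped by the treatment label. The authors deposited raw counts per gene with the exonic length of each gene (unit: bases); per the submitters' processing notes the tools were HISAT2 2.2.1 and featureCounts 2.0.1 on GRCm38, with no settings named. Per the labels' protocols, mRNA was captured on oligo(dT) beads and amplified by PCR, without mention of molecular identifiers, so counting error is a lower limit on the error. Of 55487 identifiers, 55227 matched GENCODE M21, which gave symbols and positions.

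Background was the summed count over the summed length of 1466 odorant and vomeronasal receptor genes in each library. Genes passed filterByExpr (36508) and a mean count of at least 5 times background (10641). TMM factors, estimateDisp and glmQLFit (robust, group only) were run in edgeR 4.0.16 (R 4.3.3), with calls at an adjusted p under 0.05. The SE is the log2 fold change divided by the square root of F. CPM uses the same factors, and ratios a prior count of 0.5. Ratios were tested by exact permutation in scipy 1.17.1. Alternatives were DESeq2 1.42.0, limma-voom 3.58.1, other factors, filters and thresholds, background subtraction, a replicate block and leaving out each library.

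The genes, lists and the choice of genes tested were made with earlier results of these data known. The text names all 10 axis genes, up to 3 further pathway genes per direction with the smallest p and groups that do not overlap, and the 5 genes most correlated with Epor and with Cish; Klf1, Gata1, Tfrc and Zc3h12a were singled out after their values were seen. Same-numbered libraries of the 2 groups correlated at -0.15, 0.13 and -0.25 in their deviations from group means. With 3 libraries a group this cannot show whether same-numbered libraries were handled together, and the main fit took them as unpaired.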

Additional observations from a re-analysis of the deposited data

How the results depend on the processing

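Over the 10641 tested genes edgeR called 0. The count was 1813 (420 higher, 1393 lower) with all filtered genes and TMM over all of them, 2849 (631 and 2218) with no filter, 5244 (4988 and 256) with all filtered genes under the main factors, 6 (1 and 5) at 3 times background, 503 (327 and 176) with DESeq2 and 2 (0 and 2) at an adjusted p under 0.1. Leaving out each library gave 0 to 3, the 3 arising without control library 1 or control library 3. Axis genes called went from 0 of 8 to 1 of 10 under the first 3 of these settings (Ptpn6, Ptpn6 and Socs2). Over the 8 tested genes the count stayed at 0 with each library left out. In the fit of all filtered genes under the main factors, leaving out control library 3 called Socs2 (edgeR adjusted p 0.0198) and Cish (0.0414). Leaving out fasted library 2 called Socs2 (0.0333), and leaving out any other library called neither. Other pathway genes called went from 0 of 60 to 9 of 72 with TMM over all filtered genes and to 12 of 72 with no filter, all lower. Of all genes, 3.82% were called lower in the first of these fits and 2218 of 52922 in the other. The median of the 10641 tested genes was itself -0.50 in the first.

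Signs turned with TMM over all filtered genes and with no filter for Epor (-0.082 and -0.12), Stat5a (-0.51 and -0.54), Stat5b (-0.44 and -0.48) and Pim1 (-0.35 and -0.38), and at 3 times background for Stat5a (-0.083), Stat5b (-0.048) and Pim1 (-0.018). With each library left out, Stat5a ranged from -0.14 to 0.24, Stat5b from -0.010 to 0.12 and Pim1 from -0.30 to 0.42. Jak2, Socs1, Socs3 and Ptpn6 kept their sign under every alternative that tested them, as did Cish and Socs2; Jak2, Socs1 and Socs3 were not in the fit at 10 times background. With the replicate number as a block, 0 genes were called, and the 8 log2 fold changes kept their sign (Epor 0.54, Ptpn6 -0.34). The block changed no call. Of the 8 ratio differences, 5 turned sign with a library left out: Stat5a to Stat5b ranged from -0.12 to 0.17, Epor to Jak2 from -0.39 to 0.32, Socs3 from -0.054 to 0.90, Cish from -0.0037 to 1.19 and Pim1 from -0.66 to 0.20. Epor to Jak2 also turned with a prior count of 5 (0.00056) and after background subtraction (0.059). The axis genes had 184 counts or more in each library; at the lowest count the counting error was 1.98% (Ptpn6) to 7.37% (Socs1), a lower limit with PCR reads.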
